A study of Mus musculus with 9 samples.

Results

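The genes described here encode the enzymes that remove superoxide and peroxides, the glutathione and thioredoxin systems that supply them with electrons, the glutathione transferases, and the NRF2 and KEAP1 proteins that control many of these genes. They were chosen by name: all protein-coding rows whose symbol starts with Gpx, Prdx, Gsta, Gstm, Gstp, Gstt, Gstk, Gsto, Gstz, Txn, Txnrd, Mgst or Sod followed by a digit, and Cat, Gsr, Gclc, Gclm, Gss, Nqo1, Hmox1, Srxn1, Nfe2l2 and Keap1. The rule found 58 of the 54532 genes in the deposited tables. Of the 58, 54 had at least 1 read in some library, 45 reached a mean of 1 CPM (counts scaled to the library total) in at least 1 group, and Gpx2, Gpx5, Gstm4 and Prdx6b had no read in any library.

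Poly A RNA was sequenced from 3T3-L1, a mouse preadipocyte line, in 9 libraries. The labels give 1 growth protocol for all groups, in serum-containing medium with 3 days at confluence. The Undifferentiated group (3 libraries) is the control without the inducers, and when its cells were collected is not given in the sources used here. The Differentiated group (3 libraries) was then induced with insulin (10 μg/mL), rosiglitazone (1 μM), dexamethasone (1 μM) and the phosphodiesterase inhibitor IBMX (0.5 mM), and the Lysfree group (3 libraries) received the same inducers in a medium to which no lysine was added. By the study's methods, the induction medium also had another serum and a lysine-free base, with lysine added for Differentiated. Against Undifferentiated, the inducers and this change of medium cannot be told apart. All libraries come from a single cell line, and the labels do not say whether the 3 libraries of a group came from separate cultures, so p values measure only the spread between these libraries, which may be technical.

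Superoxide dismutases turn superoxide into hydrogen peroxide, which catalase, the glutathione peroxidases and the peroxiredoxins then reduce. Glutathione peroxidases draw on glutathione, kept reduced by glutathione reductase, and most peroxiredoxins draw on thioredoxin, kept reduced by thioredoxin reductase, and both reductases use NADPH. The transcription factor NRF2, encoded by Nfe2l2 and held in check by KEAP1, binds antioxidant response elements in many of these genes, and fat cells are known for a high NADPH turnover that serves both lipid synthesis and peroxide removal.

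Library totals ranged from 15880144 to 21806693 counts. Genes with no more than 3 counts in each library of a group count as being at the floor in it. Lysfree library 1 stood apart from the other Lysfree libraries: the chi-square per degree of freedom over genes was 43.3 and 44.4 against them, and from 2.76 to 12.3 for all other pairs of replicates. Among the genes described here with a mean of at least 1 CPM in Lysfree, it was lowest relative to the mean of Lysfree 2 and 3 for Sod1 (0.577 times), Txn1 (0.647 times) and Mgst3 (0.651 times), and results on Lysfree are therefore also given without it where it matters. It was highest for Nqo1 (1.56 times) and Gclm (1.43 times). Leaving it out raised the share of all genes called at an adjusted p under 0.05. That share went from 38.5% to 45.2% in Lysfree vs Differentiated and from 35.1% to 40.6% in Lysfree vs Undifferentiated. Calls of single genes gained without this library stand beside that general gain. The cell labels, which also call the cells fibroblasts, were checked against markers. Levels are in the deposited FPKM, which adjusts counts for gene length and sequencing depth on a scale that differs slightly between libraries. The summed level of 7 adipocyte markers was 298 to 378 FPKM in Undifferentiated, 6468 to 6781 in Differentiated and 234 to 311 in Lysfree. That of 5 preadipocyte markers was 464 to 471, 79.8 to 80.7 and 208 to 229. Epcam, Myod1 and Adgre1 had no read in any library, and the summed endothelial markers stayed at or below 0.270 FPKM. The leukocyte list of 4 genes summed to 1.49 to 1.79 FPKM in Undifferentiated, 3.4 to 5.01 in Differentiated and 3.62 to 4.85 in Lysfree, nearly all of it Cd68, with Ptprc at 0 in Differentiated and Lysfree. The epithelial markers other than the unread Epcam summed to 0 to 0.345 FPKM, 0.789 to 1.12 and 0 to 0.0115. The part of either list in the results was not tested. In RNA of whole cultures, fewer cells of a type and less RNA per cell cannot be told apart.

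On differentiation Mgst3, Mgst2 and Sod2 rose and Gstt1, Sod3 and Gpx8 fell by at least 2-fold. In Differentiated vs Undifferentiated, 24 of the 54 genes tested were higher and 18 lower at an adjusted p under 0.05. Of all genes tested 23.0% were higher and 23.2% lower. Called in either direction were 77.8% of the antioxidant genes, against 46.1% of all genes tested and 77.5% of those with a mean of at least 1 CPM in a group. The antioxidant shares here and below count all genes tested, so they and the shares at 1 CPM or more are of unlike sets. Of the 54, 45 reached 1 CPM in a group, and of those called Gstm6 alone did not. A change of at least 2-fold as well (a DEG) was called for 24 genes, 11 higher (10.4% of all genes tested) and 13 lower (11.4%), 44.4% in all against 21.8% of all genes tested and 32.6% of those at 1 CPM or more. The FPKM of the groups did not overlap for 42 of the 54 genes, against 50.9% of all genes. The median log2 fold change over the 54 genes was 0.27, and 0.02 over all genes. Setting genes at the floor in 1 group to their bound gave a median of 0.18. The DEGs that rose were Mgst3, Mgst2, Sod2, Prdx3, Srxn1, Gstz1, Txnrd3, Sod1, Txnrd2, Gstp2 and Txn2. Those that fell were Gstm6, Gstt1, Sod3, Gpx8, Gstm1, Gsto2, Gstm2, Nqo1, Gstt3, Gpx7, Prdx4, Gstm5 and Gpx1.

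When lysine was left out of the differentiation medium, Mgst2, Mgst3 and Gsta4 were lower and Gpx1 and Gsto1 higher by at least 2-fold. In Lysfree vs Differentiated, 13 of 53 genes tested were higher (19.7% of all genes tested) and 19 lower (18.8%), 60.4% in all against 38.5% of all genes tested and 65.0% of those at 1 CPM or more. Of the 53, 45 reached 1 CPM in a group, and of those called Gsta1 and Gstm7 did not. Only 2 rose at least 2-fold, Gpx1 and Gsto1, with 8.14% of all genes doing so. Another 12 were called at least 2-fold lower (10.5% of all genes), namely Mgst2, Mgst3, Gsta1, Gsta4, Gstm7, Gstz1, Srxn1, Sod1, Sod2, Gstt2, Cat and Gsr. Of these, Gsta1 and Gstm7 were at the floor in Lysfree, with bounds below 2-fold. DEGs made up 26.4% in all, against 18.7% of all genes and 28.4% of those at 1 CPM or more. Groups did not overlap for 37 of the 53, against 46.6% of all genes. The median log2 fold change was -0.13, against -0.06 for all genes, and -0.02 with genes at the floor set to their bound. Without Lysfree library 1 the counts were 17 higher and 20 lower, with 2 and 11 DEGs. The share of all genes tested that were called was then 45.2%.

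Against undifferentiated cells, Lysfree cells showed 19 of 51 genes higher (18.0% of all genes tested) and 22 lower (17.1%), 80.4% in all against 35.1% of all genes tested and 60.3% of those at 1 CPM or more. Of the 51, 44 reached 1 CPM in a group, and of those called Gstm6, Gstm7 and Mgst2 did not. DEGs were 4 higher (Gsto1, Gstp2, Txnrd2 and Txnrd3, against 5.52% of all genes) and 12 lower (against 8.76%), 31.4% in all against 14.3% of all genes and 21.8% of those at 1 CPM or more. The groups did not overlap for 42 of the 51, against 43.5% of all genes. The median log2 fold change was -0.33, against -0.02 for all genes. The 3 comparisons share libraries, so their counts are not independent of each other. Leaving out Lysfree library 1 gave 20 higher and 24 lower, with 40.6% of all genes tested then called in either direction.

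**Figure D1:**
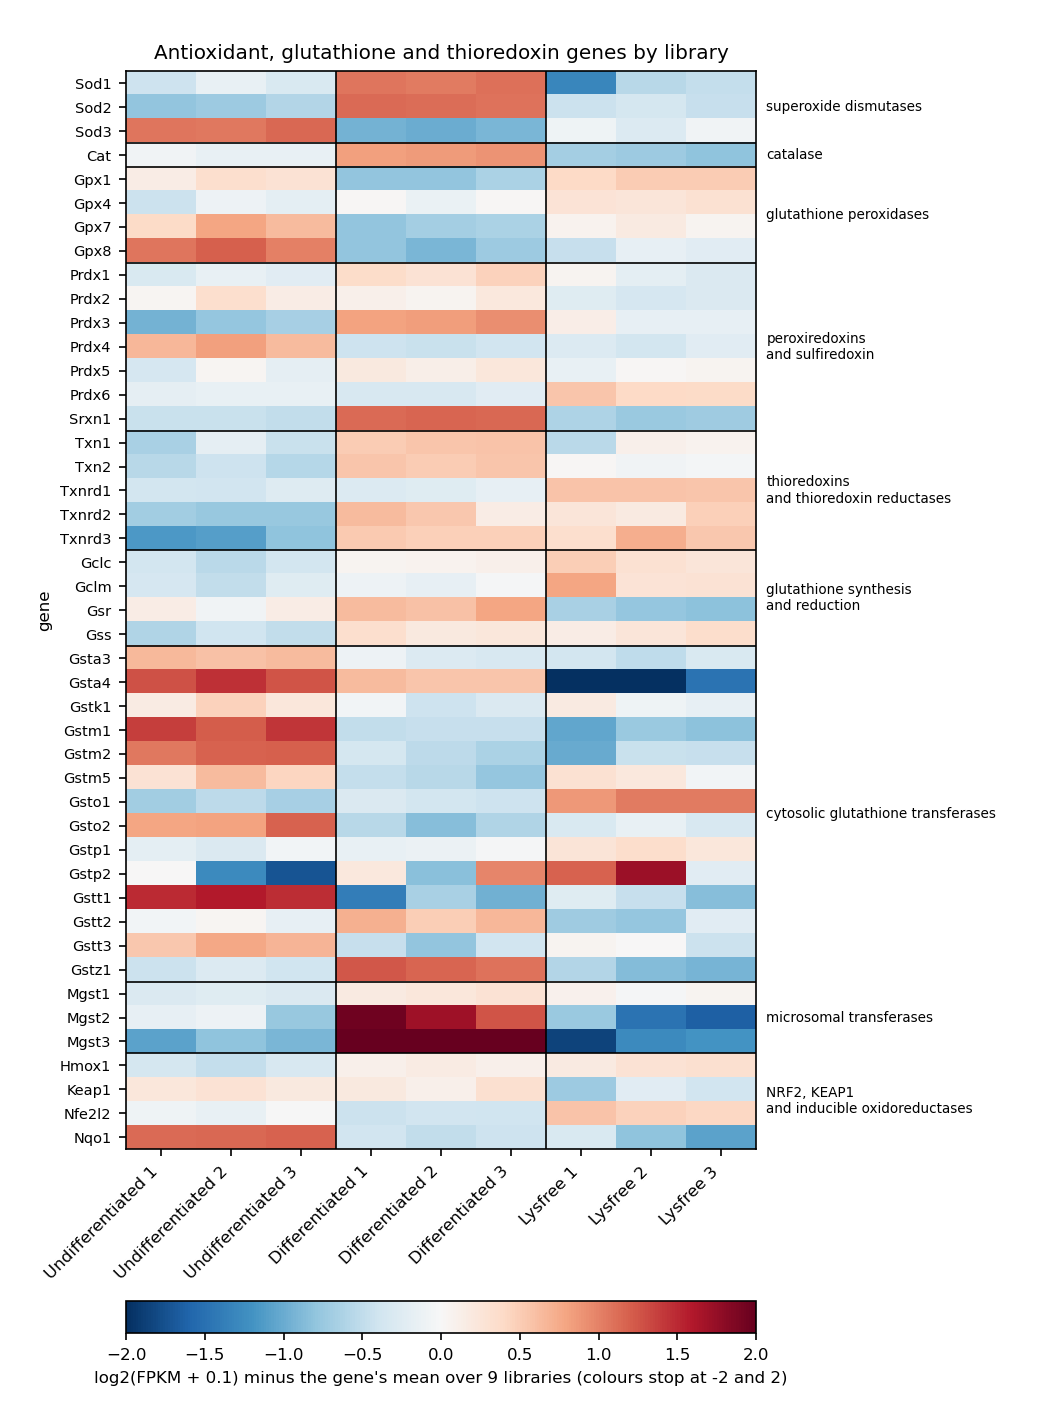
Level of the 45 genes with a mean of at least 1 CPM in some group (rows, ordered by role) in the 9 libraries (columns), as log2(FPKM + 0.1) minus the mean of the gene over all 9, with colours stopping at -2 and 2. Mgst3 and Mgst2 are darkest red in Differentiated, Gsta4 is darkest blue in Lysfree, and Sod3, Gpx8, Gstm1, Gstt1 and Nqo1 are red in Undifferentiated alone.

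The regulators were highest or lowest in Lysfree. Nfe2l2 (NRF2, chr2:75675513-75704641, minus strand, mm10) was at 31.4, 30 and 33 FPKM in Undifferentiated, 24.7, 25.4 and 25.4 in Differentiated and 49.5, 45.8 and 44.6 in Lysfree. It was lowest in Differentiated and highest in Lysfree, with no overlap between any groups, and fell on differentiation (log2 fold change -0.35, SE 0.06, adjusted p = 2.0e-08), but stood higher in Lysfree than in Differentiated (log2 fold change 0.95, SE 0.09, adjusted p = 1.2e-08) and than in Undifferentiated (log2 fold change 0.61, SE 0.10, adjusted p = 4.1e-06). Keap1, whose protein sends NRF2 to degradation, was at 14, 14.7 and 13.7 FPKM in Undifferentiated, 13.7, 12.8 and 14.9 in Differentiated and 7.2, 10.2 and 9.19 in Lysfree. Its Undifferentiated and Differentiated values overlapped (log2 fold change -0.06, SE 0.07, adjusted p = 0.48), and the Lysfree values lay below both (log2 fold change -0.57 against Differentiated, adjusted p = 6.0e-04). An overlapping or sequence-sharing gene was found for 10.9% of the exon bases of Keap1, so part of its reads could belong to a neighbour.

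Nqo1 and Hmox1, both well-known NRF2 targets, went opposite ways on differentiation. Nqo1, a quinone reductase, was at 29.2, 29.8 and 30.2 FPKM in Undifferentiated, 10.2, 9.47 and 9.97 in Differentiated and 10.8, 7.56 and 6.27 in Lysfree. Differentiated and Lysfree overlapped and both lay far below Undifferentiated (log2 fold change -1.62, SE 0.09, adjusted p = 8.8e-73 for Differentiated and log2 fold change -1.81, SE 0.15, adjusted p = 5.0e-12 for Lysfree). Lysfree vs Differentiated was not called (log2 fold change -0.21, SE 0.17, adjusted p = 0.37), but was without Lysfree library 1, the highest of the Lysfree libraries for this gene (log2 fold change -0.47, adjusted p = 2.3e-04). Hmox1, the heme-degrading enzyme, was at 132, 120.4 and 134 FPKM in Undifferentiated, 180.5, 189 and 179.5 in Differentiated and 189.6, 206 and 211 in Lysfree. It was higher in Differentiated than in Undifferentiated (log2 fold change 0.48, SE 0.05, adjusted p = 5.4e-19) and in Lysfree than in Undifferentiated (log2 fold change 0.70, SE 0.10, adjusted p = 3.7e-07). All Lysfree values lay above all Differentiated values, by 1.16-fold with an adjusted p = 0.054, and the call was made without Lysfree library 1 (log2 fold change 0.23, adjusted p = 1.8e-08).

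The promoters were searched for the core of the element that NRF2 binds and for the AP-1 site. A RefSeq window of 300 bases (250 before to 50 after the transcription start, GRCm38.p6) was found for 50 of the 58 genes, and 2 motifs were searched on both strands: TGACNNNGC, the core of the antioxidant response element, and TGANTCA, the AP-1 site. TGACNNNGC was present in 10 of the 50 genes (20%) and in 14% of the 27025 genes with a window, and TGANTCA in 6 of 50 (12%) and in 8.97% of all. The genes with TGACNNNGC were Gclm, Gsta3, Gstm5, Gstm7, Mgst1, Nfe2l2, Prdx1, Sod1, Srxn1 and Txnrd1, and those with TGANTCA were Gstm5, Gstp1, Gstp2, Mgst2, Prdx1 and Srxn1. Neither was found in the windows of Mgst3 and Nqo1. A match of letters is a description of the window, not a binding site.

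The 250 bases before the start are printed for 4 genes that carry these motifs and moved differently: Srxn1 and Prdx1, which rose on differentiation and were lower in Lysfree, and Gclm and Txnrd1, which were highest in Lysfree. Capitals mark the matches to TGACNNNGC or TGANTCA on either strand, and all 4 genes lie on the plus strand.
Srxn1, chr2:152105274-152105523, with TGANTCA at 102 and 45 bases before the start (its TGACNNNGC match lies after the start): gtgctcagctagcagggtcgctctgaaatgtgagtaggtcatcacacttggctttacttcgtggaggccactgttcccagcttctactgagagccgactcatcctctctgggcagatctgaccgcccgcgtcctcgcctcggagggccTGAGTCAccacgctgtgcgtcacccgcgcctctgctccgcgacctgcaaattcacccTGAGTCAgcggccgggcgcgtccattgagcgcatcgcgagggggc
Prdx1, chr4:116685349-116685598, with TGANTCA at both matches and TGACNNNGC overlapping the latter: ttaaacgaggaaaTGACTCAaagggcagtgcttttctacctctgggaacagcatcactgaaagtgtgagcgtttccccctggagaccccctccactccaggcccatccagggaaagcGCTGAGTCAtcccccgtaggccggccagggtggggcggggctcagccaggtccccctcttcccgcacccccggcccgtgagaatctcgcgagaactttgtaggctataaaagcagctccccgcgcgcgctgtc
Gclm, chr3:122245307-122245556, with TGACNNNGC on the minus strand: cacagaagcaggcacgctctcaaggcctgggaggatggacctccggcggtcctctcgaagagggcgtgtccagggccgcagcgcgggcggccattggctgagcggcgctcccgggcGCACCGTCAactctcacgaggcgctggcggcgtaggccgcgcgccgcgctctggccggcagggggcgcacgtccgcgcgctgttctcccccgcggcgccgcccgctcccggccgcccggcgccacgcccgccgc
Txnrd1, chr10:82858956-82859205, 1 of 3 windows of the gene, with TGACNNNGC on the minus strand: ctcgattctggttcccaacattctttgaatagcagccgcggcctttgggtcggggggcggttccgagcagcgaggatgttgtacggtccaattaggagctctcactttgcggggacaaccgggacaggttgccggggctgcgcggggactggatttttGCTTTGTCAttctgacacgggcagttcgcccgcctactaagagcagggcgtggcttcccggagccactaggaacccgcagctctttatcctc

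The superoxide dismutases exchanged places. Sod1, the copper-zinc enzyme of the cytosol (chr16:90220754-90226329), was at 41.7, 50.1 and 44.9 FPKM in Undifferentiated, 117, 114 and 119 in Differentiated and 22.5, 37.8 and 40.2 in Lysfree. Sod2, the manganese enzyme of mitochondria, was at 5.03, 5.29 and 5.82 FPKM in Undifferentiated, 19.4, 19.2 and 18.7 in Differentiated and 6.51, 6.84 and 6.38 in Lysfree. Sod3, the secreted extracellular enzyme, was at 50.9, 50.7 and 53.8 FPKM in Undifferentiated, 12.6, 12.2 and 12.8 in Differentiated and 22.8, 20 and 23.1 in Lysfree. Differentiated stood apart from the other groups in all 3 genes, above them for Sod1 and Sod2 and below them for Sod3. On differentiation Sod1 rose 2.52-fold (log2 fold change 1.33, SE 0.05, adjusted p = 2.6e-138) and Sod2 3.5-fold (log2 fold change 1.81, SE 0.06, adjusted p = 3.7e-192), and Sod3 fell 4.22-fold (log2 fold change -2.08, SE 0.06, adjusted p = 1.1e-243). Sod3 made up 50.5% of the summed FPKM of the 3 genes in Undifferentiated, and Sod1 78.7% in Differentiated.

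Without lysine, Sod1 and Sod2 lay far below their Differentiated level. Sod1 was lower than in Differentiated (log2 fold change -1.74, SE 0.15, adjusted p = 2.9e-09), and the change was -1.54 without Lysfree library 1, whose Sod1 value is the lowest. Sod2 was lower as well (log2 fold change -1.48, SE 0.09, adjusted p = 1.5e-11), while Sod3 was higher (log2 fold change 0.88, SE 0.10, adjusted p = 2.4e-07) and still below Undifferentiated (log2 fold change -1.19, SE 0.10, adjusted p = 1.1e-11). Against Undifferentiated, Sod1 was lower (log2 fold change -0.39, adjusted p = 0.021) and Sod2 higher (log2 fold change 0.34, adjusted p = 0.012), but the Sod1 call was lost without Undifferentiated library 2 or 3 (adjusted p = 0.066 and 0.16), and the Sod2 call was lost without Lysfree library 2 or Undifferentiated library 1 (adjusted p = 0.068 and 0.098). The sum of the 3 dismutases was 103 ± 4.49 (SD, n = 3) FPKM in Undifferentiated, 149 ± 2.58 (SD, n = 3) in Differentiated and 62.1 ± 9.17 (SD, n = 3) in Lysfree.

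Catalase, the peroxisomal enzyme that splits hydrogen peroxide, rose on differentiation and ended below its undifferentiated level in Lysfree. Cat (chr2:103453849-103485160) was at 55.7, 52.4 and 52.4 FPKM in Undifferentiated, 102, 105 and 109 in Differentiated and 36.3, 35.2 and 33.4 in Lysfree. No group overlapped another: Differentiated was the highest and Lysfree the lowest. It rose 1.93-fold on differentiation (log2 fold change 0.95, SE 0.05, adjusted p = 1.3e-66), was 2.88-fold lower in Lysfree than in Differentiated (log2 fold change -1.53, SE 0.09, adjusted p = 6.2e-12) and 1.48-fold lower than in Undifferentiated (log2 fold change -0.57, SE 0.10, adjusted p = 1.7e-05).

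**Figure D2:**
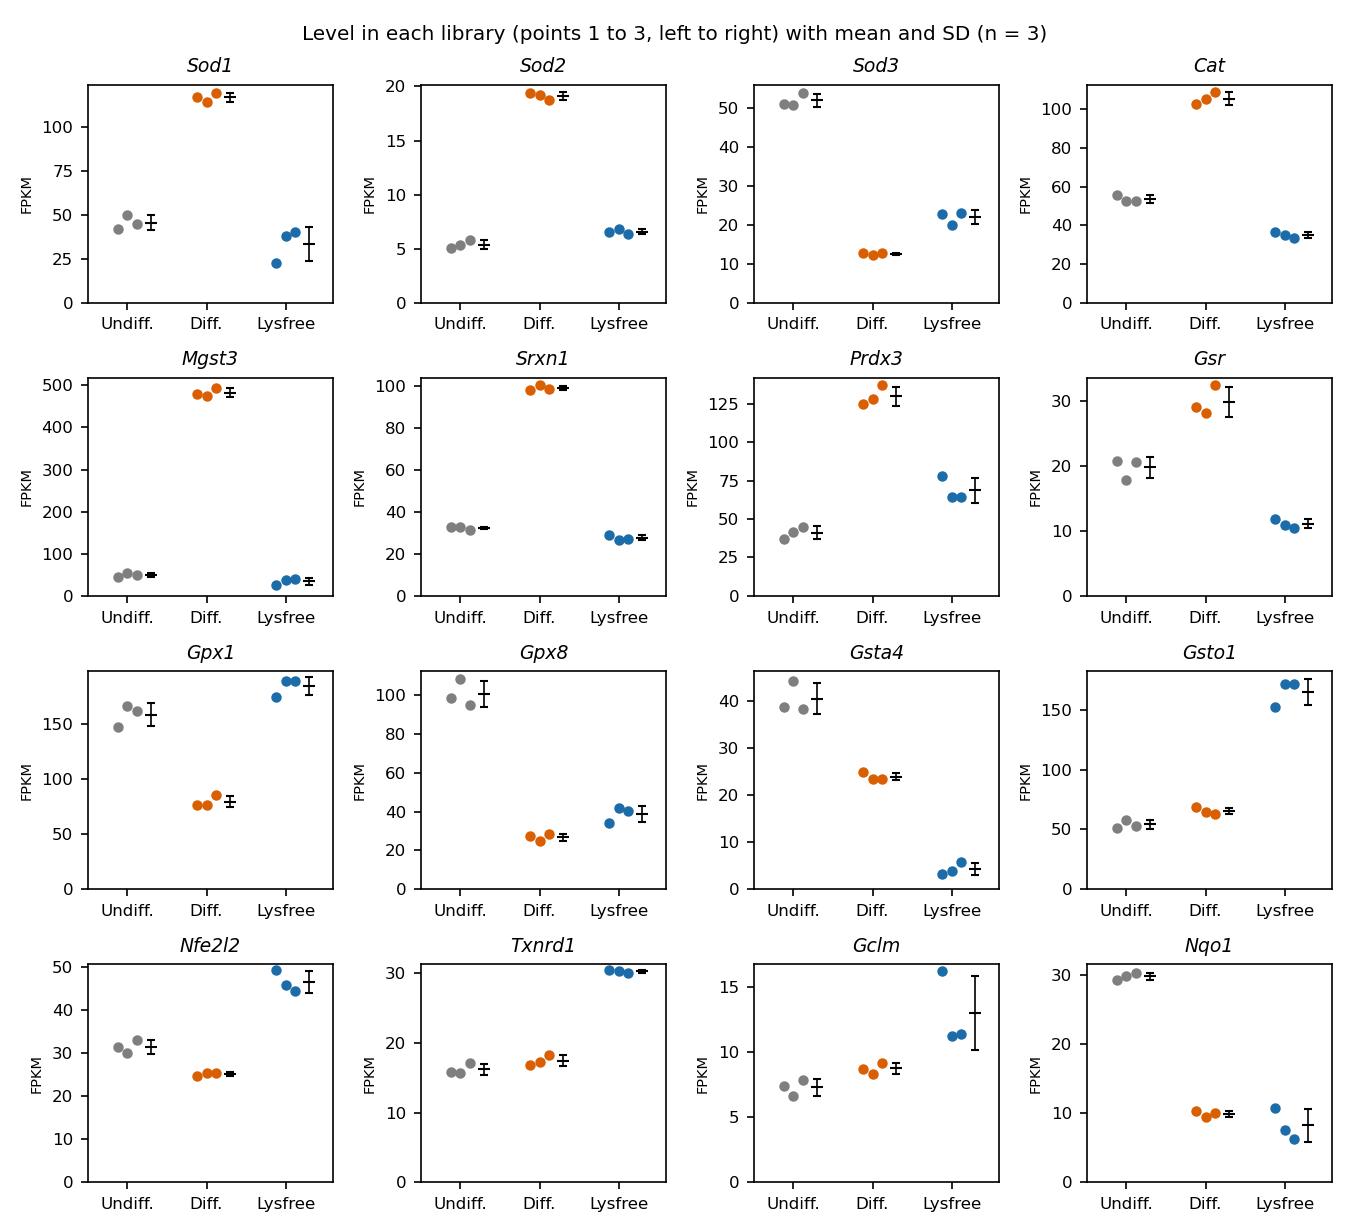
FPKM of 16 of the genes in each library (points, replicates 1 to 3 from left to right) with the mean and SD of 3 libraries beside them, each axis starting at 0. Sod1, Sod2, Cat, Mgst3, Srxn1, Prdx3 and Gsr are highest in Differentiated, Gpx1, Gsto1, Nfe2l2, Txnrd1 and Gclm are highest in Lysfree, and Sod3, Gpx8, Gsta4 and Nqo1 are highest in Undifferentiated.

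Several glutathione peroxidases fell on differentiation. Of the 6 tested, 3 fell on differentiation, each at least 2-fold (Gpx1, Gpx7 and Gpx8), and 1 rose (Gpx4), while in Lysfree vs Differentiated 4 were higher and 0 lower, by edgeR at an adjusted p under 0.05. Of all genes tested, 23.2% were lower on differentiation (11.4% at least 2-fold) and 19.7% higher in Lysfree vs Differentiated. The count of lower genes was also 0 at an unadjusted p under 0.05 and by DESeq2 and limma. Gpx3 and Gpx6 were not called in either. Gpx1, the abundant selenium-dependent enzyme of cytosol and mitochondria, was at 147, 166 and 162 FPKM in Undifferentiated, 76.6, 76.6 and 84.8 in Differentiated and 174, 188 and 188 in Lysfree. Its Differentiated values were the lowest by a wide margin, 2.03-fold under Undifferentiated (log2 fold change -1.02, SE 0.06, adjusted p = 3.5e-73) and 2.42-fold under Lysfree (log2 fold change 1.28, SE 0.09, adjusted p = 1.7e-10). Lysfree also lay above Undifferentiated without overlap (log2 fold change 0.26, adjusted p = 0.033), a call lost without Lysfree library 2 or 3 or Undifferentiated library 1 or 3 (adjusted p from 0.1 to 0.21).

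Gpx4, which reduces lipid hydroperoxides within membranes and guards cells from ferroptosis, was at 125, 158 and 147 FPKM in Undifferentiated, 171, 154 and 172 in Differentiated and 204, 199 and 209.8 in Lysfree. It was the leading peroxidase in Differentiated with 57.2% of the summed FPKM of the family, against 44.6% in Lysfree, where it was highest (log2 fold change 0.37, SE 0.08, adjusted p = 0.0012 against Differentiated). Undifferentiated and Differentiated overlapped, and the small rise between them (log2 fold change 0.18, adjusted p = 0.0016) was lost without Undifferentiated library 1 (adjusted p = 0.18). Of all 100-base stretches of Gpx4 transcripts, 40.8% also occur in other genes, chiefly a processed copy, so its reads may be split.

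Gpx8, a peroxidase of the endoplasmic reticulum, was at 98.7, 108 and 95 FPKM in Undifferentiated, 27.3, 24.9 and 28.3 in Differentiated and 34.3, 41.8 and 40.3 in Lysfree. It was 3.83-fold lower in Differentiated than in Undifferentiated (log2 fold change -1.94, SE 0.07, adjusted p = 2.9e-164), and Lysfree lay between the 2 without overlap, 1.52-fold above Differentiated (log2 fold change 0.60, SE 0.12, adjusted p = 2.4e-04) and 2.51-fold below Undifferentiated (log2 fold change -1.33, SE 0.11, adjusted p = 7.7e-12). Gpx7, its relative in the same compartment, fell too (log2 fold change -1.33 on differentiation).

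Among the peroxiredoxins, Prdx3 and Prdx4 moved in opposite directions. Prdx3, the mitochondrial enzyme, was at 36.9, 41.6 and 45 FPKM in Undifferentiated, 125, 128 and 137 in Differentiated and 78, 64 and 64 in Lysfree. Prdx4, the enzyme of the endoplasmic reticulum, was at 49.1, 55.2 and 48.1 FPKM in Undifferentiated, 23.2, 22.8 and 23.8 in Differentiated and 25.5, 24.1 and 26.6 in Lysfree. Prdx3 rose 3.1-fold on differentiation (log2 fold change 1.63, SE 0.06, adjusted p = 1.4e-161) and Prdx4 fell 2.23-fold (log2 fold change -1.16, SE 0.07, adjusted p = 3.5e-69). In Lysfree, Prdx3 stood between the other groups (log2 fold change -0.85, SE 0.10, adjusted p = 2.2e-07 against Differentiated and log2 fold change 0.78, SE 0.11, adjusted p = 4.1e-07 against Undifferentiated). Prdx4 stayed below Undifferentiated (log2 fold change -0.95, SE 0.10, adjusted p = 3.7e-09), and its difference from Differentiated was not called (log2 fold change 0.19, SE 0.10, adjusted p = 0.15), though it passed without Lysfree library 1 (adjusted p = 0.028).

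Prdx1, the most abundant peroxiredoxin and a cytosolic enzyme, was at 108, 121 and 115 FPKM in Undifferentiated, 174, 163 and 185 in Differentiated and 139, 117 and 109 in Lysfree. It rose on differentiation (log2 fold change 0.57, SE 0.05, adjusted p = 4.9e-29) and was lower in Lysfree (log2 fold change -0.45, SE 0.09, adjusted p = 4.2e-04), where it overlapped Undifferentiated (log2 fold change 0.13, SE 0.10, adjusted p = 0.35). Prdx6, which uses glutathione in place of thioredoxin, was at 23, 23.3 and 23.5 FPKM in Undifferentiated, 20.7, 20.8 and 22.2 in Differentiated and 38, 34.4 and 33.9 in Lysfree. Lysfree was the highest group here, 1.74-fold above Differentiated (log2 fold change 0.80, SE 0.09, adjusted p = 1.9e-07). The fall of Prdx6 on differentiation was small (log2 fold change -0.16, adjusted p = 0.019) and was lost without Differentiated library 1 or 2 or Undifferentiated library 3 (adjusted p from 0.089 to 0.11). The remaining members, Prdx2 and Prdx5, had mean levels between 41.7 and 57.8 FPKM.

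Srxn1, sulfiredoxin, repairs peroxiredoxins that have been over-oxidised at their active cysteine. It was at 32.7, 33 and 31.6 FPKM in Undifferentiated, 98.5, 100.5 and 98.8 in Differentiated and 29.2, 26.7 and 27.4 in Lysfree. The Differentiated libraries stood far above all the others, with a rise of 3-fold (log2 fold change 1.59, SE 0.06, adjusted p = 6.2e-172) and a difference of 3.42-fold between Differentiated and Lysfree (log2 fold change -1.77, SE 0.09, adjusted p = 6.2e-13). Lysfree lay slightly below Undifferentiated without overlap, which was not called (log2 fold change -0.18, SE 0.10, adjusted p = 0.2) but was without Lysfree library 1 (log2 fold change -0.24, adjusted p = 0.0017).

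In the thioredoxin system, 4 of 5 genes rose on differentiation, and all 5 stood above Undifferentiated in Lysfree. Over all genes tested the shares higher were 23.0% and 18.0%, and of genes at 1 CPM or more 77.5% and 60.3% were called in either direction. Txn1, the main cytosolic thioredoxin, was at 124, 171 and 143 FPKM in Undifferentiated, 277, 285 and 288 in Differentiated and 133, 209 and 203 in Lysfree. It rose 1.9-fold (log2 fold change 0.93, SE 0.05, adjusted p = 1.3e-64), and was lower in Lysfree than in Differentiated (log2 fold change -0.57, SE 0.13, adjusted p = 7.6e-04). Its Lysfree and Undifferentiated values overlapped, and the call between them (log2 fold change 0.37, adjusted p = 0.026) was lost without Lysfree library 2 or 3 or Undifferentiated library 1 or 3 (adjusted p from 0.062 to 0.21). Txn2 and Txnrd2, the mitochondrial partners, rose by 1.03 and 1.21 on the log2 scale.

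The reductases parted from each other. Txnrd1, the cytosolic thioredoxin reductase, was at 15.8, 15.6 and 17.1 FPKM in Undifferentiated, 16.8, 17.2 and 18.3 in Differentiated and 30.4, 30.3 and 30 in Lysfree. Differentiated overlapped Undifferentiated (log2 fold change 0.08, SE 0.06, adjusted p = 0.27) and Lysfree lay far above both (log2 fold change 0.86, SE 0.09, adjusted p = 3.9e-08 against Differentiated and log2 fold change 0.95, SE 0.10, adjusted p = 8.4e-10 against Undifferentiated). Txnrd3, known best from testis as a thioredoxin and glutathione reductase, was at 4, 4.13 and 5.09 FPKM in Undifferentiated, 12.9, 12.5 and 12.6 in Differentiated and 11.4, 14.9 and 13 in Lysfree. Differentiated and Lysfree overlapped and both stood above Undifferentiated (log2 fold change 1.5, SE 0.10, adjusted p = 1.0e-54 and log2 fold change 1.62, SE 0.14, adjusted p = 2.3e-11). Lysfree vs Differentiated was not called for Txnrd3 (log2 fold change 0.12, SE 0.12, adjusted p = 0.5), but passed without Lysfree library 1 (adjusted p = 0.034).

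Glutathione is made by glutamate-cysteine ligase and glutathione synthetase, and glutathione reductase returns its oxidised form. All 4 of these genes rose on differentiation, none by 2-fold, against 23.0% of all genes tested that rose. Gclc, the catalytic subunit of the ligase, was at 8.25, 7.29 and 8.22 FPKM in Undifferentiated, 11.1, 11.2 and 11.4 in Differentiated and 15, 13.2 and 12.6 in Lysfree. Gclm, its modifier subunit, was at 7.4, 6.59 and 7.87 FPKM in Undifferentiated, 8.72, 8.32 and 9.19 in Differentiated and 16.2, 11.3 and 11.4 in Lysfree. Both were lowest in Undifferentiated and highest in Lysfree, without overlap between any groups. Gclc rose by 0.48 (SE 0.08, adjusted p = 1.3e-08) on the log2 scale on differentiation and stood 0.83 (SE 0.12, adjusted p = 5.4e-07) above Undifferentiated in Lysfree. Its step from Differentiated to Lysfree was small (log2 fold change 0.34, SE 0.10, adjusted p = 0.012) and was lost without Differentiated library 1 or 2 (adjusted p = 0.062 and 0.051).

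Gclm rose by 0.24 on differentiation (adjusted p = 0.0026), a call lost in 1 fit of all 9 libraries (adjusted p = 0.078), and was higher in Lysfree than in Differentiated (log2 fold change 0.63, SE 0.12, adjusted p = 2.3e-04). Lysfree library 1 was the highest for Gclm, and without it the log2 fold change was 0.42 (adjusted p = 1.1e-10). Gss, the synthetase, was at 2.58, 3.01 and 2.81 FPKM in Undifferentiated, 5.08, 4.58 and 4.66 in Differentiated and 4.42, 4.72 and 5.1 in Lysfree. Differentiated and Lysfree overlapped (log2 fold change 0.06, SE 0.12, adjusted p = 0.72) and both exceeded Undifferentiated (log2 fold change 0.74, SE 0.09, adjusted p = 2.6e-14 and log2 fold change 0.81, SE 0.13, adjusted p = 6.4e-06). Of the exon bases of Gss, 15.4% overlap genes of the opposite strand, Acss2 among them, so part of its reads could belong to a neighbour.

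Gsr, glutathione reductase (chr8:33652523-33698163), went the other way from the synthesis genes in Lysfree. It was at 20.8, 17.8 and 20.6 FPKM in Undifferentiated, 29, 28 and 32.4 in Differentiated and 11.8, 10.9 and 10.5 in Lysfree. No groups overlapped: Differentiated was highest and Lysfree lowest. The gene rose 1.49-fold on differentiation (log2 fold change 0.57, SE 0.07, adjusted p = 5.0e-17), and in Lysfree was 2.58-fold lower than in Differentiated (log2 fold change -1.37, SE 0.10, adjusted p = 6.3e-10) and 1.73-fold lower than in Undifferentiated (log2 fold change -0.79, SE 0.12, adjusted p = 1.1e-06). Gsr made up 54.6% of the summed FPKM of the 4 genes in Differentiated.

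**Figure D3:**
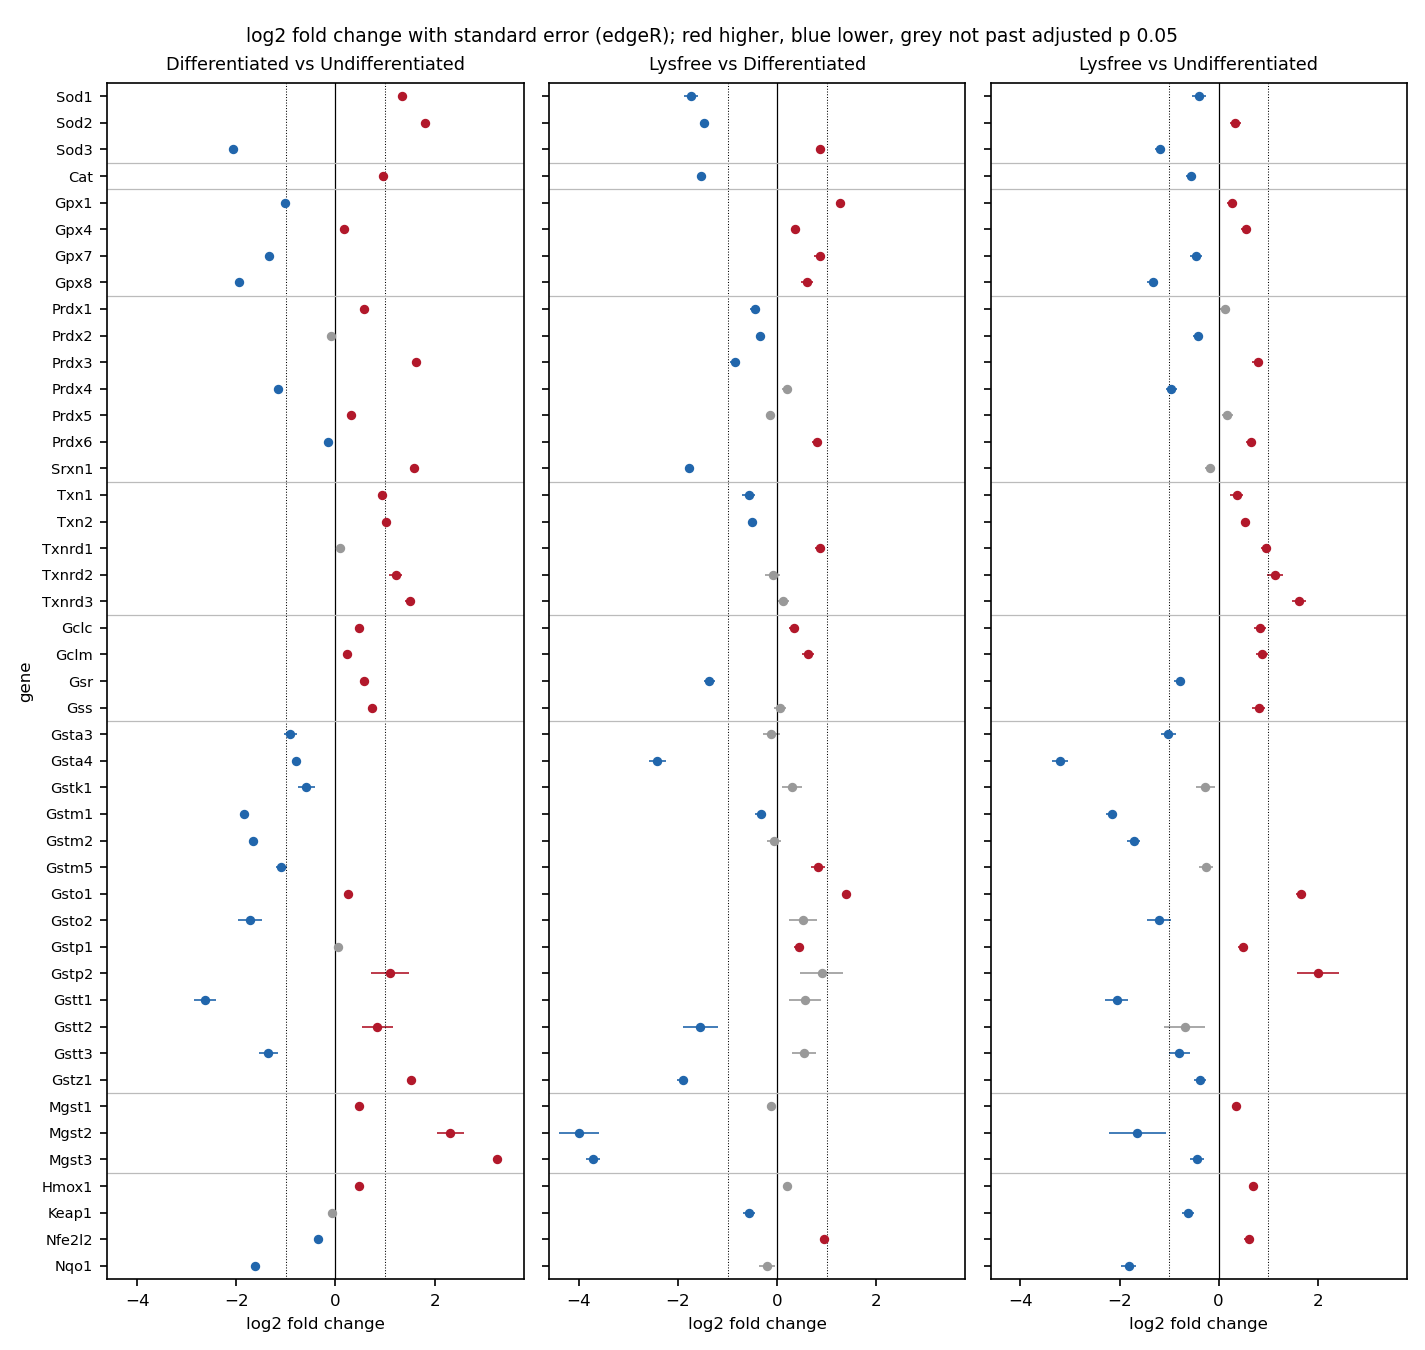
log2 fold change of the 45 genes with a mean of at least 1 CPM in some group in the 3 comparisons, with the standard error as a bar, red where higher, blue where lower and grey where the adjusted p was not under 0.05, and dotted lines at 2-fold. Mgst3 and Mgst2 reach 3.27 and 2.32 on differentiation and -3.71 and -3.99 in Lysfree vs Differentiated, and Gsta4 reaches -3.2 in Lysfree vs Undifferentiated.

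The cytosolic glutathione transferases, which join glutathione to electrophiles, were called lower more often than higher in each comparison. In each comparison this rested in part on genes at the floor. Of 21 tested on differentiation, 4 were higher and 10 lower, 2 and 7 of them DEGs (23.0% and 23.2% of all genes, and 10.4% and 11.4% as DEGs). In Lysfree vs Differentiated, 3 of 20 were higher and 6 lower (19.7% and 18.8% of all genes). The 6 include Gsta1 and Gstm7, at the floor in Lysfree, and without Lysfree library 1 the count was 4 higher and 5 lower. In Lysfree vs Undifferentiated 3 of 19 were higher and 10 lower (18.0% and 17.1%), 8 of the latter DEGs (8.76%). Without Lysfree library 1 the last count was 3 higher and 11 lower. The 8 DEGs include Gstm6 and Gstm7, both at the floor in Lysfree, and the bound of Gstm7 against Undifferentiated was 1.30-fold. Gstm1 and Gstm2, the abundant mu class enzymes, fell by 1.84 and 1.67 on the log2 scale on differentiation. Among low members, Gstm6 had reads in Undifferentiated alone (mean level 0.187 FPKM), at least 2.01-fold above the floor of 3 counts per library in Differentiated and at least 2.10-fold in Lysfree. Gsta1 and Gstm7, also among the DEGs of Lysfree vs Differentiated, had a mean at or below 0.301 FPKM in every group. In that comparison their bounds against the floor were 1.56-fold and 0.939-fold, so no difference was shown for Gstm7.

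Gsta4 conjugates the lipid peroxidation product hydroxynonenal. The gene (chr9:78182774-78209349) was at 38.7, 44.2 and 38.3 FPKM in Undifferentiated, 24.8, 23.4 and 23.5 in Differentiated and 3.28, 3.81 and 5.66 in Lysfree. It fell in steps without overlap, first on differentiation (log2 fold change -0.79, SE 0.08, adjusted p = 4.0e-23) and far more in Lysfree, 5.34-fold below Differentiated (log2 fold change -2.42, SE 0.17, adjusted p = 1.5e-10) and 9.17-fold below Undifferentiated (log2 fold change -3.20, SE 0.16, adjusted p = 4.0e-17). Gsto1, an omega class enzyme that reduces dehydroascorbate, was highest in Lysfree. Gsto1 (chr19:47854970-47864790) was at 51.5, 58.1 and 52.9 FPKM in Undifferentiated, 68.5, 64.8 and 63 in Differentiated and 152, 172 and 171 in Lysfree. Lysfree stood 2.64-fold above Differentiated (log2 fold change 1.40, SE 0.09, adjusted p = 4.2e-11) and 3.15-fold above Undifferentiated (log2 fold change 1.65, SE 0.10, adjusted p = 5.0e-15), while the rise on differentiation was 1.18-fold (log2 fold change 0.24, SE 0.06, adjusted p = 9.3e-05).

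Gstz1, which is the maleylacetoacetate isomerase of tyrosine breakdown, was at 8.05, 9.02 and 8.28 FPKM in Undifferentiated, 26.1, 24.6 and 23.3 in Differentiated and 7.25, 5.93 and 5.72 in Lysfree. It was highest in Differentiated (log2 fold change 1.52, SE 0.06, adjusted p = 4.6e-119) and lower in Lysfree (log2 fold change -1.91, SE 0.11, adjusted p = 5.2e-12). Against Undifferentiated its Lysfree level was lower (log2 fold change -0.38, adjusted p = 0.013), a call lost without Lysfree library 2 or 3 or Undifferentiated library 2 or 3 (adjusted p from 0.059 to 0.077). Of the exon bases of Gstz1, 12.2% overlap genes of the opposite strand, so part of its reads could belong to a neighbour. Gstt1, a theta class enzyme, was at 4.67, 4.98 and 4.62 FPKM in Undifferentiated, 0.55, 0.984 and 0.77 in Differentiated and 1.34, 1.13 and 0.843 in Lysfree. Its fall on differentiation was 6.2-fold (log2 fold change -2.63, SE 0.22, adjusted p = 1.7e-31), and Lysfree overlapped Differentiated (log2 fold change 0.57, SE 0.33, adjusted p = 0.2).

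Gstp1, the pi class enzyme and the most abundant transferase of the family, was at 186, 176 and 207 FPKM in Undifferentiated, 193, 198 and 210.3 in Differentiated and 256, 273 and 249.6 in Lysfree. Differentiation left its level within the spread of the libraries (log2 fold change 0.05, SE 0.06, adjusted p = 0.5), and Lysfree stood above both groups (log2 fold change 0.44, SE 0.09, adjusted p = 3.0e-04 against Differentiated and log2 fold change 0.50, SE 0.10, adjusted p = 1.1e-04 against Undifferentiated). Of its 100-base stretches, 38.4% also occur in other genes, chiefly Gstp2. Gstp2 itself was at 1.58, 0.592 and 0.406 FPKM in Undifferentiated, 1.85, 0.837 and 3.22 in Differentiated and 3.69, 5.38 and 1.34 in Lysfree. The libraries of each group spread widely and overlapped those of the others, so the calls (log2 fold change 1.10, adjusted p = 0.0087 on differentiation, and 2.01, adjusted p = 2.3e-04 in Lysfree vs Undifferentiated) are uncertain, and the former was lost without Differentiated library 3 or Undifferentiated library 2 or 3 (adjusted p from 0.06 to 0.38).

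The microsomal transferases included the gene whose FPKM differed most between groups, Mgst3. Mgst3 (chr1:167371966-167393841, minus strand), a membrane enzyme with glutathione transferase and peroxidase activity, was at 44.5, 53.7 and 49.5 FPKM in Undifferentiated, 479.5, 475 and 495 in Differentiated and 25.9, 38.6 and 41 in Lysfree. The Differentiated libraries lay close together and far above both other groups. Mgst3 rose 9.63-fold on differentiation (log2 fold change 3.27, SE 0.06, with an adjusted p that the software rounded to 0), and was 13.1-fold lower in Lysfree than in Differentiated (log2 fold change -3.71, SE 0.13, adjusted p = 4.7e-15, and a log2 fold change of -3.55 without Lysfree library 1). Lysfree also lay under Undifferentiated (log2 fold change -0.43, adjusted p = 0.01), a call lost without Undifferentiated library 3 (adjusted p = 0.098).

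Mgst2, which can form leukotriene C from its precursor, followed the same order far lower, at 0.253, 0.271 and 0.135 FPKM in Undifferentiated, 1.43, 1.19 and 0.853 in Differentiated and 0.138, 0.0425 and 0.0278 in Lysfree. It rose 4.99-fold (log2 fold change 2.32, SE 0.27, adjusted p = 1.1e-16) and was 15.9-fold lower in Lysfree than in Differentiated (log2 fold change -3.99, SE 0.41, adjusted p = 5.8e-08), on 2 to 9 counts per Lysfree library. Lysfree library 1 was the highest of these, and without it the log2 fold change was -4.92 against Differentiated and -2.59 against Undifferentiated (adjusted p = 2.0e-30 and 6.8e-04). Its Lysfree and Undifferentiated values overlapped (log2 fold change -1.64, adjusted p = 0.023), and that call was lost without Lysfree library 2 or 3 or Undifferentiated library 1 or 2 (adjusted p from 0.06 to 0.094). Mgst1, the abundant microsomal enzyme, was at 132, 137 and 132 FPKM in Undifferentiated, 183, 188 and 198 in Differentiated and 170.2, 158 and 168 in Lysfree. It rose modestly (log2 fold change 0.48, SE 0.05, adjusted p = 2.0e-19), and Lysfree stood just under Differentiated without overlap, which was not called (log2 fold change -0.13, SE 0.08, adjusted p = 0.24) but was without Lysfree library 1 (log2 fold change -0.17, adjusted p = 7.5e-05). The family summed to 183 ± 7 (SD, n = 3) FPKM in Undifferentiated, 674 ± 17 (SD, n = 3) in Differentiated and 201 ± 7.31 (SD, n = 3) in Lysfree, and its leading member was Mgst1 (73%), then Mgst3 (71.7%), then Mgst1 again (82.5%).

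**Figure D4:**
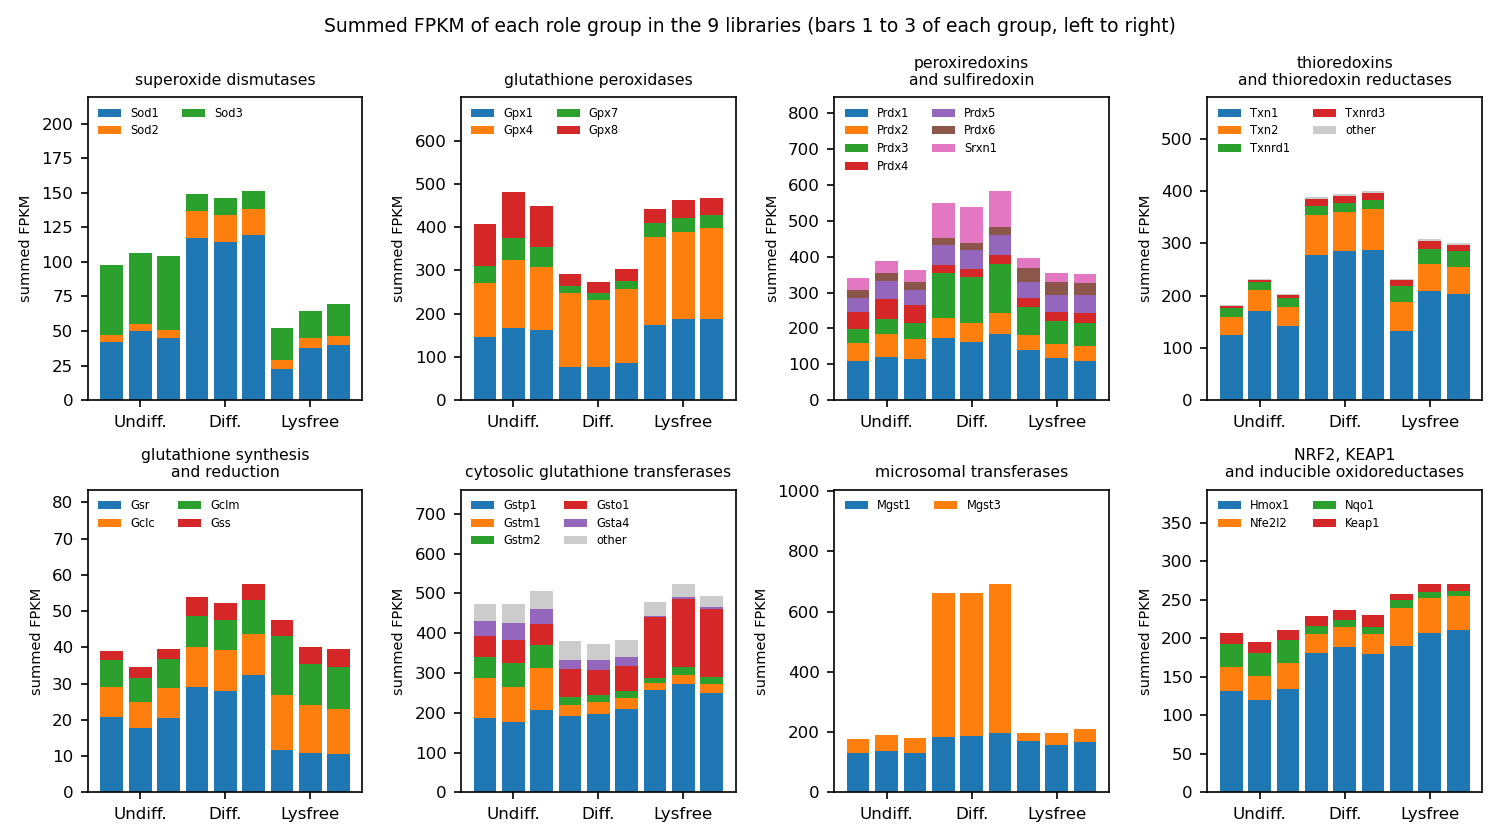
Summed FPKM of each role group in the 9 libraries (stacked bars, replicates 1 to 3 from left to right in each group), split by gene, with genes not named in a panel drawn as other where they exceed 0.5% of the largest sum. The microsomal transferases rise to about 674 FPKM in Differentiated through Mgst3, the glutathione peroxidases dip to 290, and the superoxide dismutases change from mainly Sod3 to mainly Sod1.

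Sorted by the compartment of their products, the genes moved as follows. All 5 genes listed as mitochondrial (Sod2, Prdx3, Prdx5, Txn2 and Txnrd2) were higher in Differentiated than in Undifferentiated, 4 of them at least 2-fold. Their median log2 fold change was 1.21, and 3 of the 5 were lower in Lysfree than in Differentiated. Gpx1, an enzyme of cytosol and mitochondria, was not listed and fell on differentiation (log2 fold change -1.02). Of the 5 genes of the endoplasmic reticulum and the cell exterior (Prdx4, Gpx7, Gpx8, Gpx3 and Sod3), 4 were lower in Differentiated, each at least 2-fold, with a median of -1.33, and 3 were higher in Lysfree than in Differentiated (4 without Lysfree library 1). Of the 11 genes listed as cytosolic, 8 were higher and 1 lower on differentiation, and 4 were higher and 6 lower in Lysfree vs Differentiated. These compartment lists left out the glutathione transferases, Gpx1 and Nqo1. Nqo1 fell on differentiation (log2 fold change -1.62), and of 21 cytosolic transferases tested 4 were higher and 10 lower. The 3 microsomal transferases all rose on differentiation, against the direction of the endoplasmic reticulum list (log2 fold change 3.27 for Mgst3, 2.32 for Mgst2 and 0.48 for Mgst1). In Lysfree vs Differentiated 2 of these 3 were lower and 0 higher. All genes tested had medians of 0.02 and -0.06 in these comparisons, with 23.0% higher and 23.2% lower in the first and 19.7% and 18.8% in the other. Among genes at 1 CPM or more, 77.5% and 65.0% were called in either direction.

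Summed over all 58 genes, the level was 2081 ± 91.6 (SD, n = 3) FPKM in Undifferentiated, 2835 ± 66.2 (SD, n = 3) in Differentiated and 2213 ± 63.2 (SD, n = 3) in Lysfree. Gstp1 led the sum in Undifferentiated and Lysfree (9.14% and 11.7%), and Mgst3 in Differentiated (17%).

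Enzymes tied to the supply of NADPH, which both reductases need, were listed, and 11 of the 12 could be read (the symbol Nnt stands on more than 1 row). The list is wider than the enzymes that form NADPH: Taldo1 and Tkt, for example, do not form it themselves. On differentiation 9 of the 11 were higher, all at least 2-fold, and 1 lower (Idh2), with a median log2 fold change of 1.21, and in Lysfree vs Differentiated 10 were lower and 0 higher by edgeR, and 0 were higher at an unadjusted p under 0.05 and by DESeq2 and limma. The shares of all genes tested were 23.0% higher on differentiation (10.4% at least 2-fold) and 18.8% lower in Lysfree vs Differentiated. Taldo1, transaldolase of the pentose phosphate pathway, was at 28, 34.3 and 32.2 FPKM in Undifferentiated, 279.8, 270.5 and 278 in Differentiated and 58.1, 68.5 and 68.4 in Lysfree. Its Lysfree values lay between the other groups (log2 fold change -2.02, SE 0.09, adjusted p = 1.5e-13 against Differentiated and log2 fold change 1.09, SE 0.11, adjusted p = 4.3e-10 against Undifferentiated). Tkt, transketolase of the same pathway, was at 22.5, 22.7 and 22.6 FPKM in Undifferentiated, 72.3, 73 and 69 in Differentiated and 12.7, 14.5 and 14.1 in Lysfree, with Lysfree below both groups (log2 fold change -2.31, SE 0.09, adjusted p = 1.5e-14 against Differentiated). Idh1, the cytosolic isocitrate dehydrogenase, showed the same order as Tkt (log2 fold change -2.05, SE 0.09, against Differentiated). Mthfd2, the mitochondrial folate enzyme, stood above Undifferentiated in both induced groups (log2 fold change 1.78 on differentiation, and 1.41 in Lysfree vs Undifferentiated).

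For the supply of cysteine and other precursors of glutathione, 11 of 20 genes were higher and 5 lower on differentiation, and 13 of 19 were higher and 2 lower in Lysfree vs Undifferentiated. In Lysfree vs Differentiated 5 were higher and 5 lower, and 6 and 8 without Lysfree library 1. Of genes at 1 CPM or more, 77.5%, 60.3% and 65.0% were called in these 3 comparisons in the order given. Not all genes of this list reached 1 CPM (17 of the 20 on differentiation), so its counts and these shares are of unlike sets. Cth, which makes cysteine from cystathionine, was at 8.69, 9.23 and 8.79 FPKM in Undifferentiated, 52.8, 50.6 and 56.4 in Differentiated and 49.6, 42.2 and 41.6 in Lysfree. Slc7a11, the cystine importer, was at 0.516, 0.426 and 0.677 FPKM in Undifferentiated, 4.02, 4.33 and 4.11 in Differentiated and 2.97, 2.05 and 2.07 in Lysfree. Both stood well above Undifferentiated in both induced groups (log2 fold change 2.55 and 2.94 in Differentiated, 2.37 and 2.18 in Lysfree). Chac1, which breaks glutathione down in the cytosol, was at 20.6, 20.4 and 20.6 FPKM in Undifferentiated, 58.6, 61.3 and 58.3 in Differentiated and 68.9, 101 and 101 in Lysfree. It rose on differentiation (log2 fold change 1.5, SE 0.07, adjusted p = 4.1e-103) and was higher again in Lysfree than in Differentiated (log2 fold change 0.67, SE 0.12, adjusted p = 1.0e-04). Cndp2, a dipeptidase that acts on cysteinylglycine, fell by 1.06 on the log2 scale on differentiation and was higher in Lysfree than in Differentiated (log2 fold change 1.53).

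Of 20 glutaredoxins and thioredoxin-related genes, 10 were higher and 7 lower on differentiation, and 8 were higher and 5 lower in Lysfree vs Differentiated, where the share called equals that of all genes at 1 CPM or more (65.0%, and 77.5% on differentiation). Glrx5, the mitochondrial glutaredoxin of iron-sulfur cluster assembly, rose (log2 fold change 1.79) and was lower in Lysfree than in Differentiated (-1.34). Txnip, which binds and inhibits thioredoxin, fell (log2 fold change -1.22). Of 8 methionine sulfoxide reductases and sestrins with Park7, 2 were higher and 4 lower on differentiation, and 3 higher and 4 lower in Lysfree vs Differentiated, against the same shares. Msrb3, a reductase of the endoplasmic reticulum and mitochondria, fell by 2.69 on the log2 scale and Msra, which acts on the other form of methionine sulfoxide, rose by 1.90. Sesn2, a stress-inducible sestrin, was higher in Lysfree than in Differentiated (log2 fold change 0.94, SE 0.09, adjusted p = 9.6e-09).

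Among 12 partners and regulators of NRF2, 3 were higher and 6 lower on differentiation, and 3 higher and 3 lower in Lysfree vs Differentiated, where 77.5% and 65.0% of genes at 1 CPM or more were called. Maff, a small MAF protein, was at 3.87, 4.1 and 3.76 FPKM in Undifferentiated, 30.9, 30.1 and 31.8 in Differentiated and 6.67, 9.16 and 8.7 in Lysfree, highest in Differentiated (log2 fold change 2.95, SE 0.09, adjusted p = 4.4e-258) and lower in Lysfree (log2 fold change -1.85, SE 0.12, adjusted p = 5.6e-11). Sqstm1, the autophagy receptor that takes KEAP1 away from NRF2, was at 238, 239 and 233 FPKM in Undifferentiated, 168, 179 and 168 in Differentiated and 358, 383 and 384 in Lysfree. It fell on differentiation (log2 fold change -0.49, SE 0.05, adjusted p = 4.7e-23) and was highest in Lysfree (log2 fold change 1.19, SE 0.08, adjusted p = 5.3e-11 against Differentiated). Bach1, the repressor that competes with NRF2, fell on differentiation (log2 fold change -0.93).

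Of 18 other known targets of NRF2, 7 were higher and 10 lower on differentiation, with a median log2 fold change of -0.34 against 0.02 for all genes, and 7 were higher and 8 lower in Lysfree vs Differentiated (77.5% and 65.0% of genes at 1 CPM or more were called). Cbr3, a carbonyl reductase, was at 27.4, 31.4 and 31.2 FPKM in Undifferentiated, 377, 357 and 401 in Differentiated and 41.1, 50.8 and 50 in Lysfree. Ephx1, the microsomal epoxide hydrolase, was at 170, 179 and 177 FPKM in Undifferentiated, 48.8, 45.4 and 46.6 in Differentiated and 172, 176 and 172 in Lysfree. Cbr3 rose on differentiation and Ephx1 fell (log2 fold change -1.93, SE 0.06, adjusted p = 1.4e-253 for Ephx1), and Lysfree vs Differentiated was -2.94 for Cbr3 and 1.95 for Ephx1 on the log2 scale. Osgin1, an oxidative stress-induced growth inhibitor, and Trim16 went opposite ways in Lysfree vs Differentiated (-2.89 and 2.37).

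Of 11 genes for selenoprotein synthesis and selenium transport, on which the glutathione peroxidases and thioredoxin reductases that carry selenium depend, 6 were higher and 2 lower on differentiation, a share called near the 77.5% of genes at 1 CPM or more. In Lysfree vs Differentiated 3 were higher and 3 lower, where 65.0% of genes at 1 CPM or more were called. Without Lysfree library 1, 4 were higher and 5 lower. Selenop, the secreted selenium carrier, was at 218, 222 and 227 FPKM in Undifferentiated, 99, 97 and 102 in Differentiated and 273, 195 and 191 in Lysfree, lowest in Differentiated (log2 fold change -1.19, SE 0.05, adjusted p = 1.6e-118), and Lysfree overlapped Undifferentiated. Sephs2, which makes selenophosphate, stood above Undifferentiated in Lysfree (log2 fold change 1.30, SE 0.15, adjusted p = 5.2e-09), and Trit1, which modifies the selenocysteine tRNA, rose on differentiation (log2 fold change 1.24) and was lower in Lysfree than in Differentiated (-1.18).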

How the data were processed

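Libraries were grouped by the sample labels. The authors mapped trimmed reads to mm10 (GRCm38) with HISAT2 2.0.5 and counted them per gene with featureCounts 1.5.0-p3 (the submitters' processing notes), and deposited raw counts, not normalized. The strand setting and annotation release are not given in the sources used here, so reads of overlapping or antisense genes cannot be told apart. The authors also deposited FPKM. Against FPKM computed from the counts, the deposited values differed by a factor shared by the genes of a library. This factor was 0.988 to 0.994 in Undifferentiated, 1.03 to 1.04 in Differentiated and 0.932 to 0.953 in Lysfree. Its source was not tested. Levels, sums and overlaps in FPKM carry this factor between groups, while the edgeR test used the counts. FPKM was used for levels.

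The quasi-likelihood test of edgeR 4.0.16 (R 4.3.3), with TMM factors, was run on the counts of the 6 libraries in each comparison. Genes without any read in those libraries were dropped, and p values were adjusted by Benjamini-Hochberg over all the rest. SE is the size of the log2 fold change divided by the square root of F. In Differentiated vs Undifferentiated edgeR found no variation in dispersion between genes beyond its trend, which makes those p values very small. The smallest p of an exact permutation test of 1 gene in 3 against 3 libraries is 0.1. The alternatives were DESeq2 1.42.0, limma 3.58.1 on log2(FPKM + 1) and log2(FPKM + 0.1), other scalings, filters and dispersions, a replicate term, 1 fit of all 9 libraries, and leaving out each library. Floors and bounds cover counting error only.

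The genes described and the gene lists were chosen with earlier results of these data known. Described in full were the 10 genes named singly in the selection and, in each role group, the changed genes at 1 CPM or more with the largest rise and fall in each comparison and the gene of highest FPKM. Of each other list, the 2 largest rises and falls were eligible. A gene of the glutathione precursor list is not reported here singly. The sharing of 100-base stretches was computed from GENCODE vM21 transcripts, and promoter sequences are from RefSeq. Protein sequences were not used here.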

Additional observations from a re-analysis of the deposited data

How the results depend on the processing

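Among 32 genes described in full, 462 of 480 recomputed values of Differentiated vs Undifferentiated, 467 of 480 of Lysfree vs Differentiated and 434 of 479 of Lysfree vs Undifferentiated kept their direction and their side of the threshold, and none reversed. Calls were lost in 18, 2 and 41 values and gained in 0, 11 and 4. The counts of antioxidant genes called, over all of them, stayed within 1.5 times except under limma on log2(FPKM + 1), which shrinks changes of low genes by construction: there Lysfree vs Undifferentiated had 2 DEGs higher and 7 lower with a median of -0.1893 on the log2 scale, and the median of Differentiated vs Undifferentiated was 0.0945. Calls of Sod1, Txn1, Gpx1, Mgst2, Mgst3 and Gstp2 in Lysfree vs Undifferentiated, and of Gstp2 and Gpx4 in Differentiated vs Undifferentiated, were lost under several settings, and the cause was not tested. Replicate numbers did not pair the libraries: the correlation of the deviations of same-numbered libraries ranged from -0.08 to 0.12. With the replicate block, 24 genes were higher and 18 lower in Differentiated vs Undifferentiated, 13 and 17 in Lysfree vs Differentiated, and 19 and 21 in Lysfree vs Undifferentiated. The counts of role groups and other lists without Lysfree library 1 were chosen after seeing the data. In Lysfree vs Differentiated they moved the lower calls of the glutathione precursor list from 5 to 8 and of selenoprotein synthesis from 3 to 5, and the other moves over 1.5 times were of counts of 1 or 2. Depth limits the genes with under 1 CPM in every group, 13 of the 58, for which no statement on absence is made.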
